A study of Mus musculus with 2 samples.

Results

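The genes described here are 10 of serotonin signalling, measured in the midbrain of mouse embryos, of 43346 Ensembl genes in the tables. They were chosen by symbol for their roles. They are Tph2, Slc6a4 and Fev, which mark serotonin neurons, Maoa and Maob, which encode monoamine oxidases, and 5 receptor genes, Htr1a, Htr1b, Htr2c, Htr3a and Htr7. All 10 symbols matched an Ensembl identifier in both libraries, and all are annotated as protein-coding. The study holds 1 group, the midbrain of B6NCrl embryos at embryonic day 16.5, labelled healthy, with no treatment, mutation or control tissue. Both libraries are biological replicates from pooled midbrains, male and female together. The pool of replicate 2 came from 37 embryos, the number for replicate 1 is not stated, and both carry one donor identifier. From each pool, 10 ng of RNA above 200 nucleotides was made into a library with ERCC spike-ins, which are synthetic RNAs added in known amounts. The tables hold 36576263 expected counts, the estimated reads per gene, for replicate 2 and 31830355 for replicate 1. With 1 group there is no comparison of conditions, no test was made and every value is a description. In bulk tissue, fewer cells of a type and less RNA per cell cannot be told apart.

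Serotonin is made from tryptophan in 2 steps. Tryptophan hydroxylase, TPH2 in neurons, adds a hydroxyl group with the help of the cofactor tetrahydrobiopterin, and aromatic amino acid decarboxylase (Ddc) then yields serotonin. The vesicular transporter (Slc18a2) loads it into vesicles, the plasma membrane transporter (Slc6a4) takes it back up after release, and monoamine oxidases on the outer mitochondrial membrane degrade it. Serotonin neurons lie in the raphe nuclei of the brainstem, and the dorsal raphe reaches into the midbrain, so a midbrain dissection may hold a small group of them. All receptor families are coupled to G proteins except the Htr3 family, whose products form an ion channel. In the embryo, some thalamic neurons that make no serotonin are also known to use Slc6a4 for a time.

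The promoters of the 3 genes that mark serotonin neurons are shown first, because these genes are known to be switched on together in serotonin neurons, in part by GATA2 and GATA3 and by the ETS factor that Fev encodes. Each sequence is the RefSeq entry on GRCm38.p6, from 250 bases before the gene's start to 50 bases after it, read 5′ to 3′ on the gene's strand. Tph2 lies at chr10:115184973-115185272 on the minus strand, Slc6a4 at chr11:76998347-76998646 on the plus strand and Fev at chr1:74885359-74885658 on the minus strand. Capitals mark GATAA, one form of the motif that GATA factors bind, and TATAAA, the TATA box.
Tph2 promoter: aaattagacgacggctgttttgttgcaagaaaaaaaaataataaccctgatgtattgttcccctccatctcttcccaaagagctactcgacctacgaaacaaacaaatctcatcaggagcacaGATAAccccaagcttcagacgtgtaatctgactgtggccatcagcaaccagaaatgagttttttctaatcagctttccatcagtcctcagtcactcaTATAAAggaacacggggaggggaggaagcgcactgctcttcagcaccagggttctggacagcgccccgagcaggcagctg
Slc6a4 promoter: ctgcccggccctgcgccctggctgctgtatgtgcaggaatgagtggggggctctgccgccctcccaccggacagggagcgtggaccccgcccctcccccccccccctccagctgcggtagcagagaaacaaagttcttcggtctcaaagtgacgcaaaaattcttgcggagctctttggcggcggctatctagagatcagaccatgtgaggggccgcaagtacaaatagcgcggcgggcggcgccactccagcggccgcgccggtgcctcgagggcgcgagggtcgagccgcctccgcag
Fev promoter: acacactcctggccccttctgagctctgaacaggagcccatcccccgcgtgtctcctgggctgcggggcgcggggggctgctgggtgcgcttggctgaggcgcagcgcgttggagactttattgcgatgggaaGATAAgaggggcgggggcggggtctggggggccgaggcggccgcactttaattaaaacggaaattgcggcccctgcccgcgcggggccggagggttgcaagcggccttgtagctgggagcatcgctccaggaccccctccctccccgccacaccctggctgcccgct
The Tph2 promoter holds 1 GATAA starting 127 bases before the start and a TATAAA starting 30 bases before it. The Fev promoter holds 1 GATAA starting 117 bases before the start and no TATAAA, and the Slc6a4 promoter holds neither. The Slc6a4 and Fev promoters are rich in G and C, at 67.7% and 69.0%, against 47.3% for Tph2. Both strands were searched, and the 2 motifs overlap nowhere in these sequences. Only these exact letters were searched. Other forms of the GATA motif, such as the GATAG on the opposite strand of Slc6a4, were not counted, so a lack of GATAA is not a lack of GATA sites. GATAA occurred in 25.4% of all 32851 promoters of the same length and in 3 of the 8 serotonin genes with an entry, Tph2, Fev and Maoa. TATAAA occurred in 13.6% of all promoters and in Tph2 alone of the 8. The 4 letters GGAA, the core of ETS motifs, occurred in 96.0% of all promoters and in 7 of the 8, and no match was found in the Htr7 window.

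Levels are in TPM, the abundance of a gene's transcripts corrected for their length and brought to a fixed total per library, so that genes can be compared. Of the 10 genes, 9 reached 1 TPM in both libraries, as did 62.1% of all 21474 protein-coding genes. The exception was Htr3a. The median of the 10 genes was 6.53 TPM in replicate 2 and 5.58 TPM in replicate 1, beside 5.21 TPM in replicate 2 and 5.25 TPM in replicate 1 for all protein-coding genes. Maoa stood highest and Htr3a lowest in both libraries. Only Maoa had credibility bounds, the range the quantifier gives around each TPM, that stayed clear of the next gene's in both libraries. The ranks of Htr7, Tph2, Slc6a4 and Htr2c, which had neighbouring levels, were not the same in the 2 libraries.

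**Figure D1:**
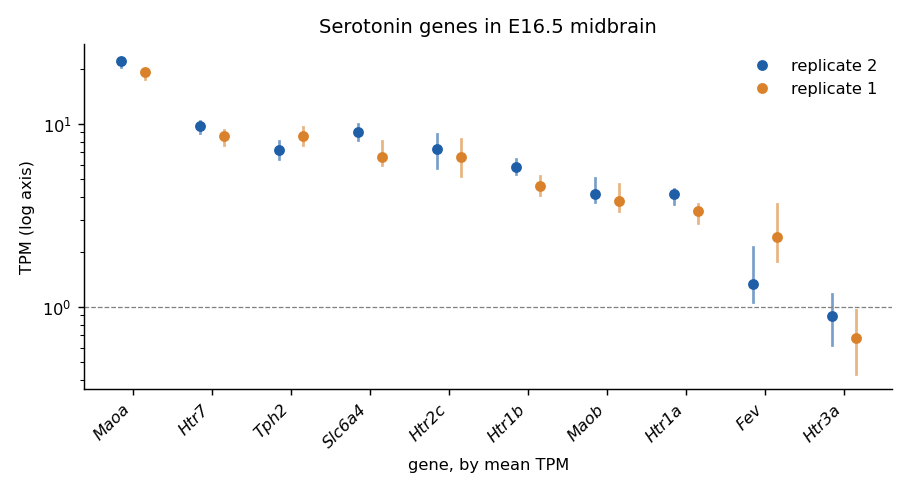
Level of the 10 serotonin genes in TPM on a log axis, ordered by mean, in replicate 2 (blue) and replicate 1 (orange). Bars are the deposited credibility bounds and the dashed line marks 1 TPM. Maoa stands apart at about 20.6 TPM, 4 genes lie close together with means of 6.92 to 9.19 TPM, and Htr3a lies below 1 TPM in both libraries.

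Tph2 (ENSMUSG00000006764.8, chr10:115078641-115185022, minus strand) encodes the neuronal enzyme of the first, rate-limiting step. It had 7.20 TPM in replicate 2 and 8.60 TPM in replicate 1, a mean of 7.90 ± 0.990 TPM (SD, n = 2), on 392 expected counts in replicate 2 and 402 in replicate 1. This placed it at the 54.7th percentile of protein-coding genes. The bounds, 6.43 to 8.09 TPM in replicate 2 and 7.70 to 9.63 TPM in replicate 1, overlapped. All counts of the gene were given to its full-length coding transcript, Tph2-201, in both libraries.

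Slc6a4 (ENSMUSG00000020838.8, chr11:76998603-77032340, plus strand), the serotonin transporter, had 9.07 TPM in replicate 2 and 6.60 TPM in replicate 1, on 509 expected counts in replicate 2 and 319 in replicate 1. Its mean of 7.84 ± 1.75 TPM (SD, n = 2) was close to that of Tph2, but it was the higher of the pair in replicate 2 and the lower in replicate 1. The log2 ratio of Tph2 over Slc6a4 was -0.33 in replicate 2 and 0.38 in replicate 1, a mean of 0.02 ± 0.506. In replicate 2 the bounds of Slc6a4, 8.23 to 10.0 TPM, lay above those of Tph2, whereas in replicate 1 its bounds of 5.97 to 8.11 TPM overlapped them. The coding transcript Slc6a4-201 held 96.1% of the gene's TPM in replicate 2 and 97.3% in replicate 1.

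Fev (ENSMUSG00000055197.4, chr1:74881509-74885419, minus strand) encodes PET-1, the ETS factor known to define serotonin neurons. It was low, with 1.33 TPM in replicate 2 and 2.40 TPM in replicate 1, and rested on 40 expected counts in replicate 2 and 51 in replicate 1. Tph2 exceeded it 5.41-fold in replicate 2 and 3.58-fold in replicate 1. The mean was 1.87 ± 0.757 TPM (SD, n = 2). The libraries differed in how its reads were assigned to transcripts. In replicate 1 the short retained-intron transcript Fev-203 took 23.5% of the gene's TPM on 3.75 expected counts, and in replicate 2 it took none. The effective length used for the gene was 1391 bases in replicate 2 and 1148 bases in replicate 1.

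The second hydroxylase gene, Tph1, known for the pineal gland, the gut and mast cells, was at 0.49 TPM in both libraries on 12 expected counts in replicate 2 and 15 in replicate 1. Tph2 exceeded Tph1 14.7-fold in replicate 2 and 17.6-fold in replicate 1. The Tph1 bounds, 0.518 to 1.47 TPM in replicate 2 and 0.604 to 1.72 TPM in replicate 1, lay above its own estimate, so this ratio depends on the estimate used. The summed level of the pineal markers (Crx, Aanat, Asmt and Tph1) was 0.86 TPM in replicate 2 and 1.02 TPM in replicate 1, with Asmt at 0 counts in both. Mast cell markers summed to 37.6 TPM in replicate 2 and 32.6 TPM in replicate 1. Of these only Kit, which neurons also express, reached 1 TPM, and the proteases Cpa3, Tpsb2 and Mcpt4 stood at 0.24 TPM or less in either library.

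Of 12 further genes of synthesis and vesicle loading, 10 reached 1 TPM in both libraries, beside 62.1% of all protein-coding genes. The list's median was 22.9 TPM in replicate 2 and 20.1 TPM in replicate 1, above each of the 3 marker genes. The highest were Qdpr, with 101 TPM in replicate 2 and 87.8 TPM in replicate 1, and Pts, with 69.1 TPM in replicate 2 and 63.3 TPM in replicate 1, which recycle and make tetrahydrobiopterin, and Pcbd1, with 43.1 TPM in replicate 2 and 41.7 TPM in replicate 1, which takes part in its recycling. Ddc had 18.1 TPM in replicate 2 and 15.6 TPM in replicate 1. It exceeded Tph2 2.51-fold in replicate 2 and 1.81-fold in replicate 1. Slc18a2 had 23.5 TPM in replicate 2 and 24.9 TPM in replicate 1. It exceeded Slc6a4 2.59-fold in replicate 2 and 3.77-fold in replicate 1. Dopamine neurons are known to use both Ddc and Slc18a2, and all 5 dopamine markers tried (Th, Slc6a3, Pitx3, Nr4a2 and Lmx1a) reached 1 TPM, with a sum of 60.7 TPM in replicate 2 and 62.7 TPM in replicate 1. Their part in these levels was not tested. Besides Tph1, which was below 1 TPM in both, the vesicular transporter of endocrine cells, Slc18a1, was below 1 TPM in replicate 2 only, with 0.41 TPM in replicate 2 and 1.07 TPM in replicate 1.

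Among 10 transcription factors known from serotonin neurons or their progenitors, 7 reached 1 TPM in both libraries, beside 62.1% of all protein-coding genes. The median of the 10 was 4.89 TPM in replicate 2 and 3.64 TPM in replicate 1. Gata3 was by far the highest, with 77.2 TPM in replicate 2 and 71.4 TPM in replicate 1. It is known in midbrain GABA neurons as well. Gata2 had 7.44 TPM in replicate 2 and 7.06 TPM in replicate 1 and Nkx2-2 had 7.09 TPM in replicate 2 and 7.31 TPM in replicate 1. Lmx1b, which serotonin neurons need to form and dopamine neurons also use, was at 0.80 TPM in replicate 2 and 0.83 TPM in replicate 1, and En2, a factor of the midbrain-hindbrain border, at 0.46 TPM in replicate 2 and 0.61 TPM in replicate 1. The 7 hindbrain markers, Hox genes among them, were all below 1 TPM, with a sum of 0.93 TPM in replicate 2 and 1.70 TPM in replicate 1.

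The 3 protein-coding genes nearest to Tph2 in level by the summed absolute difference of log2(TPM + 1) over the 2 libraries were Bsn, with 7.18 TPM in replicate 2 and 8.56 TPM in replicate 1, Vangl1, with 7.13 TPM in replicate 2 and 8.61 TPM in replicate 1, and Jag1, with 7.16 TPM in replicate 2 and 8.54 TPM in replicate 1. Over 2 libraries this measure finds genes of a like level only. Bsn encodes a protein of presynaptic active zones, Vangl1 a planar cell polarity protein and Jag1 a Notch ligand.

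Maoa (ENSMUSG00000025037.6, chrX:16619698-16687818, plus strand) encodes the oxidase that prefers serotonin and noradrenaline. It had 22.1 TPM in replicate 2 and 19.2 TPM in replicate 1, a mean of 20.6 ± 2.04 TPM (SD, n = 2), on 1936 expected counts in replicate 2 and 1444 in replicate 1, at the 69.3rd percentile. Maob (ENSMUSG00000040147.10, chrX:16709282-16817366, minus strand), its neighbour on the X chromosome, encodes the oxidase that prefers phenylethylamine and is known in adult astrocytes and serotonin neurons. It had 4.15 TPM in replicate 2 and 3.79 TPM in replicate 1, on 207 expected counts in replicate 2 and 162 in replicate 1. Maoa exceeded Maob 5.32-fold in replicate 2 and 5.06-fold in replicate 1, with a log2 mean of 2.38 ± 0.0506 (SD, n = 2). All counts of Maob went to its coding transcript, and Maoa has 1 transcript in the tables.

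Of 10 further genes of breakdown and uptake, 5 reached 1 TPM in both libraries, beside 62.1% of all protein-coding genes. Aldh2, which oxidises the aldehyde that monoamine oxidases leave, had 78.0 TPM in replicate 2 and 72.2 TPM in replicate 1. Slc29a4, a low-affinity monoamine transporter of the plasma membrane, had 69.4 TPM in replicate 2 and 71.6 TPM in replicate 1, and the aldehyde dehydrogenase gene Aldh1b1 had 19.0 TPM in replicate 2 and 20.5 TPM in replicate 1. A further 4 stayed below 1 TPM in both libraries. Aanat, which starts the path from serotonin to melatonin, had 4 expected counts in replicate 2 and 7 in replicate 1. Asmt, which ends that path, had 0 in both, and a count of 0 allows up to 3. Ido1 had 6 expected counts in replicate 2 and 4 in replicate 1. For Tdo2 there were 2 in replicate 2 and 0 in replicate 1. Both draw tryptophan into the kynurenine path.

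**Figure D2:**
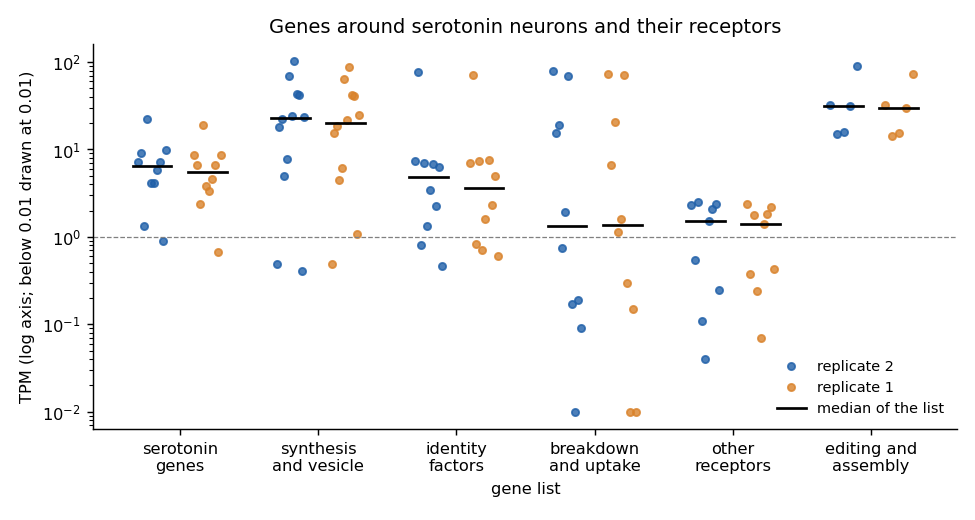
TPM of each gene on a log axis for the 10 serotonin genes and 5 further lists, in replicate 2 (blue) and replicate 1 (orange), with the list's median as a bar and 1 TPM as a dashed line. Values below 0.01 TPM are drawn at 0.01. The medians lie at 22.9 TPM in replicate 2 and 20.1 TPM in replicate 1 for synthesis and vesicle loading and at 31.3 TPM in replicate 2 and 30.2 TPM in replicate 1 for receptor editing and assembly, and those of the 9 other receptors lie at 1.54 TPM in replicate 2 and 1.41 TPM in replicate 1.

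Of the 14 serotonin receptor genes in the tables, 9 reached 1 TPM in both libraries, a share near the 62.1% of all protein-coding genes. Only Htr7 and Htr2c reached 5 TPM in both, a limit near the median of all protein-coding genes. These levels take in all transcripts of a gene, coding or not. Coding transcripts alone held 4.38 TPM in replicate 2 and 5.69 TPM in replicate 1 for Htr7. For Htr2c they held 3.81 TPM in replicate 2 and 2.81 TPM in replicate 1. Neither gene thus reached 5 TPM in both libraries on coding transcripts alone. The 14 genes summed to 39.7 TPM in replicate 2 and 34.5 TPM in replicate 1, and the 3 highest in each library, Htr7, Htr2c and Htr1b, made up 57.6% of that sum in replicate 2 and 57.3% in replicate 1.

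Htr7 (ENSMUSG00000024798.11, chr19:35958734-36057507, minus strand), a receptor that raises cyclic AMP, had 9.78 TPM in replicate 2 and 8.59 TPM in replicate 1, on 618 expected counts in replicate 2 and 467 in replicate 1. Htr2c (ENSMUSG00000041380.9, chrX:146962513-147197277, plus strand), a receptor that acts through phospholipase C, had 7.26 TPM in replicate 2 and 6.57 TPM in replicate 1, on 458 expected counts in replicate 2 and 315 in replicate 1. In replicate 2 the bounds of Htr7, 8.90 to 10.5 TPM, lay just above those of Htr2c, 5.78 to 8.82 TPM. In replicate 1 they overlapped, at 7.73 to 9.30 TPM for Htr7 and 5.20 to 8.28 TPM for Htr2c.

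Htr1b and Htr1a, 2 members of the Htr1 family known as autoreceptors, had lower TPM than Htr7 and Htr2c and kept one order. The bounds of Htr1b overlapped those of Htr2c in both libraries, so the order of that pair is not resolved. Htr1b (ENSMUSG00000049511.5, chr9:81628291-81633828, minus strand), an autoreceptor of axon terminals, had 5.85 TPM in replicate 2 and 4.59 TPM in replicate 1. Htr1a (ENSMUSG00000021721.4, chr13:105443639-105448122, plus strand), an autoreceptor of the cell body, had 4.13 TPM in replicate 2 and 3.34 TPM in replicate 1. Htr1a stood at 0.706 of the Htr1b level in replicate 2 and at 0.728 in replicate 1, and the bounds of the pair were apart in both libraries. Both receptors are also known outside serotonin neurons, so their levels do not count autoreceptors alone. Of the 4724 exon bases of Htr1b, 852 are shared with the antisense gene D430036J16Rik, which had 7.11 TPM in replicate 2 and 5.52 TPM in replicate 1. Whether the counting used strand is not stated, so reads from the 2 genes cannot be told apart there. No exon of the other 9 serotonin genes shares bases with an exon of another gene in GENCODE M21.

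Htr3a (ENSMUSG00000032269.7, chr9:48899213-48911099, minus strand), the subunit every serotonin-gated channel needs, was the lowest of the 10 genes. It had 0.89 TPM in replicate 2 and 0.68 TPM in replicate 1, on 38 expected counts in replicate 2 and 25 in replicate 1. Htr3b, which encodes the partner subunit, had 0.04 TPM in replicate 2 and 0.07 TPM in replicate 1 on 2 expected counts in replicate 2 and 3 in replicate 1.

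The other receptors lay below Htr1a. Htr1d, coupled to inhibitory G proteins like Htr1a and Htr1b, had 2.34 TPM in replicate 2 and 2.35 TPM in replicate 1. Htr5b, a receptor gene whose human counterpart is known to be interrupted, had 2.40 TPM in replicate 2 and 2.21 TPM in replicate 1, and its relative Htr5a had 2.07 TPM in replicate 2 and 1.84 TPM in replicate 1. Htr2a, a relative of Htr2c, had 2.54 TPM in replicate 2 and 1.77 TPM in replicate 1, and Htr4, which raises cyclic AMP, had 1.54 TPM in replicate 2 and 1.41 TPM in replicate 1. Htr1d, Htr5b, Htr2a and Htr5a had overlapping bounds in each library, so their order is not resolved. Besides the Htr3 genes, 3 receptors stayed below 1 TPM in both libraries. Htr1f had 0.54 TPM in replicate 2 and 0.38 TPM in replicate 1, Htr6 had 0.25 TPM in replicate 2 and 0.43 TPM in replicate 1, and Htr2b had 0.11 TPM in replicate 2 and 0.24 TPM in replicate 1.

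**Figure D3:**
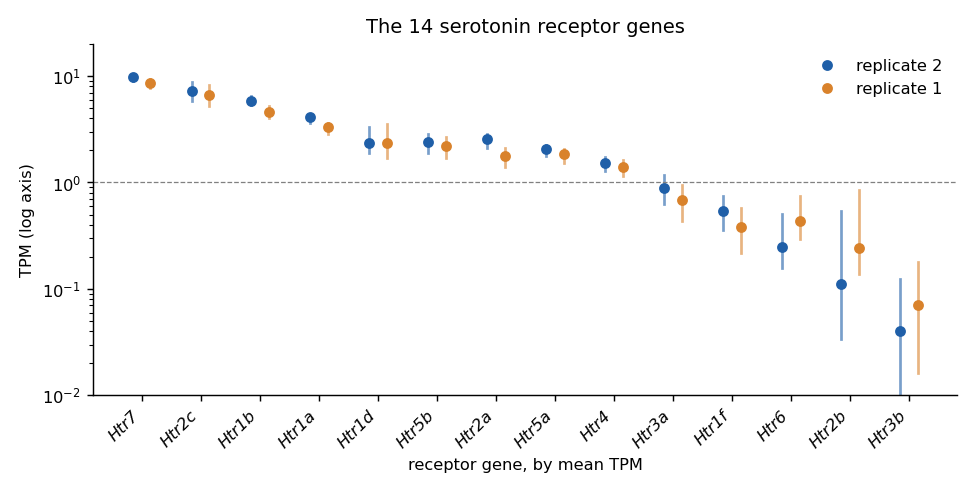
Level of the 14 serotonin receptor genes in TPM on a log axis, ordered by mean, in replicate 2 (blue) and replicate 1 (orange), with the deposited credibility bounds as bars and 1 TPM as a dashed line. Above the line in both libraries lie 9 genes, from Htr7 at 9.19 TPM to Htr4 at 1.48 TPM on average, and the lower bound of Htr3b in replicate 2 falls below the axis.

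All 5 genes tried that act on receptor RNA or protein reached 1 TPM in both libraries, beside 62.1% of all protein-coding genes. Adar, Adarb1 and Adarb2 encode ADAR proteins, of which the products of Adar and Adarb1 edit Htr2c RNA. Adar had 32.3 TPM in replicate 2 and 32.1 TPM in replicate 1, Adarb1 had 15.1 TPM in replicate 2 and 14.3 TPM in replicate 1, and Adarb2, with no known editing activity, had 15.9 TPM in replicate 2 and 15.3 TPM in replicate 1. S100a10, whose product binds HTR1B, was the highest of the 5 genes at 89.1 TPM in replicate 2 and 73.5 TPM in replicate 1. Ric3, a chaperone of acetylcholine and serotonin-gated channels, had 31.3 TPM in replicate 2 and 30.2 TPM in replicate 1 beside an Htr3a level below 1 TPM.

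Of the 9 genes whose transcripts could be compared between annotations, 6 gave at least 96.1% of their TPM to a single coding transcript in both libraries. The other 3 were Fev, Htr2c and Htr7, and in Htr2c and Htr7 the transcript with the largest share on average was not a coding one.

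For Htr7 the reads fell on transcripts that differ at a few splice sites, and 2 of these differences are shown because they set the 3 leading transcripts apart. Htr7-204, annotated as a target of nonsense-mediated decay, holds a 58-base exon at chr19:36041555-36041612 on the minus strand (GRCm38), in which capitals mark the stop codon that ends its reading frame. Htr7-205, which is coding, extends an exon by the 5 bases in capitals at chr19:35969304-35969308, shown between their neighbours in the GENCODE transcript. Extensions of this kind at the 3′ end of the coding sequence are known to give the receptor different tails.
Htr7-204 exon: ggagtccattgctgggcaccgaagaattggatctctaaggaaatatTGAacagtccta
Htr7-205 extension: cgagtttgtgctGTAAGacaaaactgtga
Htr7-204 held 51.4% of the gene's TPM in replicate 2 and 30.6% in replicate 1. Htr7-202, the coding transcript with neither stretch, held 36.0% in replicate 2 and 31.5% in replicate 1, and Htr7-205 held 6.96% in replicate 2 and 33.5% in replicate 1. Htr7-204 thus led in replicate 2, and the 3 transcripts had nearly equal shares in replicate 1. Transcripts of the decay class as a whole held 55.1% in replicate 2 and 33.9% in replicate 1. The bounds were wide. Htr7-204 had 5.02 TPM with bounds of 2.82 to 7.06 in replicate 2, and 2.63 TPM with bounds of 1.00 to 4.06 in replicate 1. Htr7-205 had 0.68 TPM with bounds of 0.00115 to 2.20 in replicate 2, and 2.88 TPM with bounds of 0.989 to 4.70 in replicate 1. Htr7-202 had 3.52 TPM with bounds of 0.227 to 4.84 in replicate 2, and 2.71 TPM with bounds of 0.171 to 4.38 in replicate 1. The bounds of each of these transcripts overlapped between the libraries, so these tables do not resolve a difference in splicing between the pools.

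For Htr2c the stretch that matters is the end of a coding exon at chrX:147169676-147169770 on the plus strand (GRCm38), 95 bases long. Htr2c-201 keeps it and Htr2c-207 skips it by splicing from a site just before it. The stretch holds adenosines that ADAR enzymes are known to edit, and its loss is known to give a shortened receptor. Capitals mark the first 2 bases, the GT at which the intron of Htr2c-207 begins.
Htr2c-201 only: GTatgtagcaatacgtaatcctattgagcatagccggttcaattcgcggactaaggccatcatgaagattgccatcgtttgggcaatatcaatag
Htr2c-201 had 3.30 TPM with bounds of 2.16 to 3.65 in replicate 2, and 1.76 TPM with bounds of 0.285 to 2.10 in replicate 1. Htr2c-207 had 0.51 TPM with bounds of 0.101 to 1.23 in replicate 2, and 1.05 TPM with bounds of 0.354 to 2.00 in replicate 1. Of the sum of these 2 transcripts, the form without the 95 bases made up 13.4% in replicate 2 and 37.4% in replicate 1. This share depends on the estimate used. By posterior mean TPM, a second deposited estimate, Htr2c-201 had 2.94 TPM in replicate 2 and 1.20 TPM in replicate 1. Htr2c-207 had 0.61 TPM in replicate 2 and 1.17 TPM in replicate 1 by that estimate. The bounds of Htr2c-207 overlapped between the libraries, while those of Htr2c-201 did not, since its lower bound in replicate 2 exceeded its upper bound in replicate 1. The largest share of the gene's TPM on average went to neither of them. Htr2c-205, a non-coding transcript of 648 bases, took 37.6% of TPM in replicate 2 and 44.1% in replicate 1, but only 7.06% of the gene's expected counts in replicate 2 and 9.35% in replicate 1. Htr2c-201 held more than that in replicate 2, 45.5%, and less in replicate 1, 26.9%. Because TPM divides by length, the few reads of the short transcript weigh more in the gene's TPM than in its counts, and the log2 ratio of the gene between the pools was 0.14 in TPM and 0.36 in scaled counts.

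**Figure D4:**
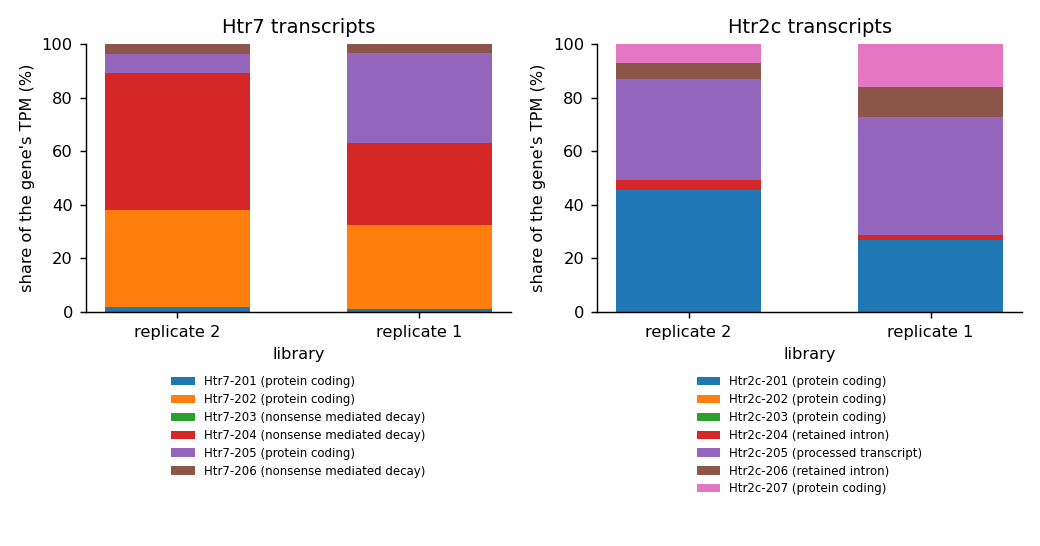
Share of each gene's TPM given to each of its transcripts, in percent, for Htr7 (left) and Htr2c (right), with replicate 2 left of replicate 1 in each panel. Htr7-204 takes 51.4% in replicate 2 and 30.6% in replicate 1, and Htr2c-201 takes 45.5% in replicate 2 and 26.9% in replicate 1.

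To compare the pools, expected counts were scaled by the TMM method, which assumes that most genes do not differ. Of the 10 genes, 8 had a mean expected count of at least 50. None of them differed 1.5-fold between the pools, a size that 3.44% of all 14412 genes so compared reached, and 0.645% reached 2-fold. Of the 8 genes, 7 were higher in replicate 2 and Tph2 was lower on this scale, whereas all 8 were lower on the spike-in scale, which moves the median of all genes to -0.59. Spike-ins took 2.23% of expected counts in replicate 2 and 1.49% in replicate 1. The median log2 ratio of replicate 2 over replicate 1 was 0.29 for the 8 genes and 0.01 for all compared genes, whose central 95% ran from -0.45 to 0.55. All 8 ratios lay inside that range.

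Slc6a4 had the largest of these ratios, 1.40-fold higher in replicate 2 on the TMM scale, with an exact binomial interval of 1.22 to 1.62 at 95% that covers counting error only. Tph2 differed by a log2 ratio of -0.22, with an interval of -0.42 to -0.01. The remaining ratios ran from 0.17 for Maob to 0.39 for Htr1b. Fev, too low for the count limit, had a log2 ratio of -0.53 in scaled counts, with an interval of -1.17 to 0.09, and of -0.85 in TPM. Htr3a, also too low, had 0.41 with an interval of -0.34 to 1.21. The credibility bounds of Slc6a4, Maoa and Htr1b did not overlap between the pools, and those of the other 7 genes did.

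**Figure D5:**
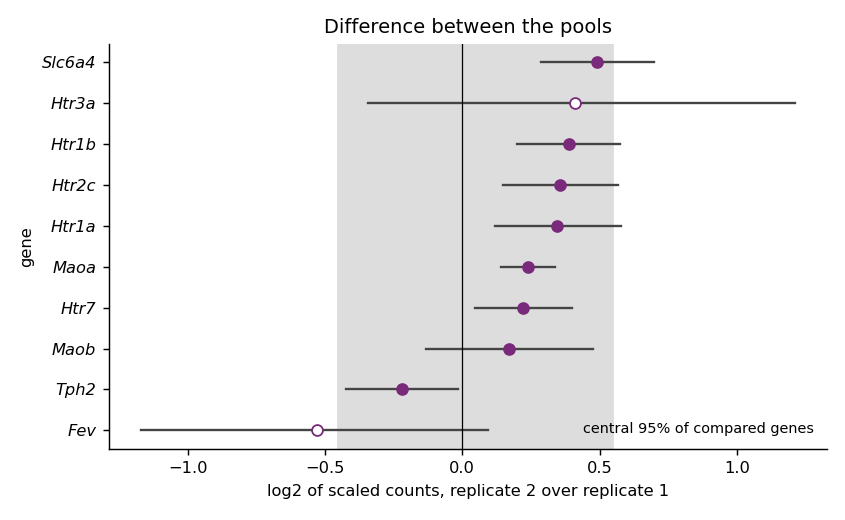
Log2 ratio of TMM-scaled expected counts, replicate 2 over replicate 1, for the 10 serotonin genes, with exact binomial 95% intervals for counting error. The grey band holds the central 95% of all compared genes, -0.45 to 0.55, and open points mark the 2 genes below the count limit. On this scale 8 genes lie right of zero and Tph2 and Fev left of it, whereas all 10 lie left of it on the spike-in scale.

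Marker lists of other cells and neighbouring tissue were set beside these values. The number of compared markers past 1.5-fold on the TMM scale varied from list to list, beside 3.44% of all genes compared. Of 6 thalamic markers, 5 were lower in replicate 2 on the TMM scale and all 6 on the spike-in scale, with a summed level of 947 TPM in replicate 2 and 1230 TPM in replicate 1, although several of them, Tcf7l2 and Lhx9 among them, are known in the dorsal midbrain as well. Only Gbx2 of the 6 passed 1.5-fold. All 5 astrocyte markers compared were higher in replicate 2 on the TMM scale and 3 of them on the spike-in scale, and the list of 6 summed to 998 TPM in replicate 2 and 584 TPM in replicate 1. Of these 5, 3 passed 1.5-fold on the TMM scale. Of the 4 dopamine markers compared, 3 passed it on the TMM scale. Th had 24.0 TPM in replicate 2 and 15.1 TPM in replicate 1 and Slc6a3 had 8.73 TPM in replicate 2 and 4.65 TPM in replicate 1, while Nr4a2 had 21.7 TPM in replicate 2 and 34.2 TPM in replicate 1. The spike-in scale lowers every log2 ratio by 0.60. There Th and Slc6a3 stayed higher in replicate 2 but below 1.5-fold, and Nr4a2 and Lmx1a were both lower past 1.5-fold. None of the 4 noradrenaline markers reached 1 TPM in both libraries, and they summed to 2.86 TPM in replicate 2 and 1.10 TPM in replicate 1. Only 1 of them, Slc6a2, was compared, and it passed 1.5-fold on the TMM scale with a log2 ratio of 0.93. It was higher in replicate 2 on the spike-in scale as well. Choroid plexus markers summed to 377 TPM in replicate 2 and 447 TPM in replicate 1. Most of this was Ttr, with 341 TPM in replicate 2 and 410 TPM in replicate 1. Of the 6 compared, 1 passed 1.5-fold, Kl, which was below 1 TPM in both libraries. On the TMM scale 2 of the 6 were higher in replicate 2 and 4 were lower. Endothelial markers summed to 158 TPM in replicate 2 and 169 TPM in replicate 1, and none of the 5 passed. Markers of pericytes and meninges summed to 207 TPM in replicate 2 and 198 TPM in replicate 1, and none of the 5 compared passed. Of those 5, Col1a1 alone was higher in replicate 2 on the TMM scale, with 70.6 TPM in replicate 2 and 49.1 TPM in replicate 1, and on the spike-in scale all 5 were lower. The part of these cells in the differences of the serotonin genes was not tested.

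In the other 5 lists around the serotonin genes, 10, 8, 5, 5 and 5 genes were compared. Of these, 2 genes passed 1.5-fold between the pools, beside 3.44% of all 14412 genes compared. Both were looked at for that reason after their values were seen. Aldh1a1, an aldehyde dehydrogenase of dopamine neurons, had 15.4 TPM in replicate 2 and 6.56 TPM in replicate 1, a log2 ratio of 1.26 on the TMM scale and 0.67 on the spike-in scale. Foxa2, a factor of the ventral midline, had 3.43 TPM in replicate 2 and 1.59 TPM in replicate 1, a log2 ratio of 0.95 on the TMM scale and 0.35, below 1.5-fold, on the spike-in scale. In the list of synthesis and vesicle genes, 9 of the 10 compared were higher in replicate 2 and none passed 1.5-fold. All 5 other receptors compared were higher in replicate 2 as well, with a median log2 ratio of 0.21, and none passed 1.5-fold. Both counts are on the TMM scale, and on the spike-in scale all 10 and all 5 of these genes were lower in replicate 2.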

How the data were processed

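Gene and transcript tables of 2 libraries were used. Per the deposited readme, reads were aligned to mm10 and quantified against GENCODE M4 with spike-ins. The sources used here do not give the aligner, the quantifier, their versions or the use of strand. Per the file headers, the deposited expected count is an estimated, unnormalized number of reads. Deposited TPM values are corrected for effective length and sum to a fixed total that includes spike-ins, per the file headers, and deposited FPKM values are scaled by length and reads. The deposited transcript share is a percent of its gene's TPM. The deposited credibility bounds give the range of the TPM signal, at a level that is not stated.

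Names and coordinates came from GENCODE M21 on GRCm38, the assembly of mm10, matched on identifiers without version. Of 43346 identifiers 42462 matched, and the others held 0.179% of expected counts in replicate 2 and 0.194% in replicate 1. Replicate 2 held 36576263 expected counts and replicate 1 held 31830355, with a count on 23769 and on 23524 genes. Entries that name no gene held 12 counts in each library and were left out. Only transcripts of the same length in both annotations were described, which leaves out that of Htr1a.

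For pool ratios, 0.5 was added to expected counts, and TMM factors of edgeR 4.0.16 from rounded counts set the scale, with size factors of DESeq2 1.42.0 (R 4.3.3), TPM and spike-ins as alternatives. Simulated data were used to check the rule on folds. Intervals are exact binomial at 95% and floors are 3 counts, and cover counting error only, because without molecular identifiers several reads can stem from 1 molecule. Promoters are RefSeq entries on GRCm38.p6. Those of Maob and Htr3a were not used here. The motifs were chosen with the sequences at hand. Other tools were Python 3.11.15, scipy 1.17.1, matplotlib 3.10.9, pandas 2.3.3 and numpy 2.4.6.

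The members and lists were chosen with earlier results of these data known. Named genes were all 10 serotonin genes and 14 receptor genes, genes of the ratios, and the 3 genes nearest to Tph2. Of each other list around the serotonin genes, the 3 highest and those below 1 TPM in both libraries were named. The marker lists of other cells and tissue did not follow this rule. Single markers, Adarb1, Adarb2, Slc18a1, Aldh1a1 and Foxa2 were named after their values were seen.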

Additional observations from a re-analysis of the deposited data

How the results depend on the processing

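Of the alternatives tried, most left a value within its spread, or a count of genes within 1.5-fold. Where the spread is the SD of the 2 libraries, leaving out a library cannot move a value beyond it. That setting is therefore no check of such values. FPKM, on another scale, gave a median of 3.55 for the 10 genes, against 6.05 TPM. With 5 TPM as the limit, 5 of the 10 genes and 2 of the 14 receptors were detected, against 9 and 9 at 1 TPM. That limit lies near the median of all protein-coding genes, 5.21 TPM in replicate 2 and 5.25 TPM in replicate 1. On the spike-in scale 1 of the 8 genes above the count limit, Tph2 with a log2 ratio of -0.82, passed 1.5-fold, against 0 on the TMM scale. Fev, below that limit, had -1.13 there and -0.53 on the TMM scale. On the spike-in scale all genes shifted down by 0.60 on the log2 scale, and 51.6% of all genes passed. With posterior mean TPM, the log2 ratio of Maoa over Maob was 2.25, of Tph2 over Tph1 2.92 and of Htr1a over Htr1b -0.53, and that of Tph2 over Slc6a4 turned to -0.0096. By expected counts, which are not corrected for length, the same ratios were 3.19, 4.89, -0.57 and -0.022, while Tph2 over Fev was 3.14, Ddc over Tph2 0.58 and Slc18a2 over Slc6a4 2.15. A single library decides Tph2 over Slc6a4, which was -0.33 without replicate 1 and 0.38 without replicate 2. The cause of these reversals was not tested. Leaving out either library gave a median of 5.58 to 6.53 TPM for the 10 genes, 9 detected genes, 9 detected receptors, 33 to 34 detected genes of the other lists, a Maoa over Maob ratio of 2.34 to 2.41, Tph2 over Fev of 1.84 to 2.44, Tph2 over Tph1 of 3.88 to 4.13, Ddc over Tph2 of 0.86 to 1.33, Slc18a2 over Slc6a4 of 1.38 to 1.91 and Htr1a over Htr1b of -0.50 to -0.46. The median share of the leading transcript was 100% in the main estimate and without either library, and 92.4% with posterior mean shares. Beyond these main results, 23 values of single genes or transcripts moved beyond their spread, and 117 values did not move. The 117 include values of a single library, which cannot leave the spread of the 2. They also include counts of detected genes per list, which were judged by the 1.5-fold limit. Depth limits Fev, Htr3a, Tph1 and the transcripts of Htr7 and Htr2c, which rest on few reads that tell them apart. No paired analysis was possible because there is 1 group.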
